A study of Mus musculus with 388 samples.

Results

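Sfrp1, Sfrp4, Rspo3, Lgr4, Lgr5, Lrp5, Lrp6, Ctnnb1, Axin2 and Tcf7l2, 10 members of the Wnt and R-spondin pathway, were described in single marrow stromal cells. They were taken by symbol from a merged table of 25000 genes, in which all 10 were found. The cells came from the bone marrow of 2-month-old C57BL/6 mice of the genotype KitMerCreMer; R26tdTomato, and were sorted as PDGFRα+ and negative for CD45, Ter119 and CD31. Tamoxifen had been given at E12.5 and E14.5, that is, before birth. Both groups share strain, alleles, tamoxifen, age and sort; they differ in the red reporter, which Tomato+ cells showed and Tomato- cells did not. The inducible Cre at the Kit locus labels the descendants of cells that expressed Kit at the time of tamoxifen, so a Tomato- cell may descend from a cell that did not express Kit or from one that was not recombined. No animal is named for any cell, and so each group counts as 1 sample: no test was made. Every interval stands for the error of counting alone, and without molecular identifiers the reads are not independent molecules.

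Wnt proteins are secreted lipid-modified ligands that bind a Frizzled receptor together with the co-receptor LRP5 or LRP6. Binding stops a cytoplasmic complex built on Axin from degrading β-catenin, which then enters the nucleus and turns on genes together with TCF and LEF factors. R-spondins bind LGR receptors and keep the ligases ZNRF3 and RNF43 from removing Frizzled, which amplifies the response, while secreted Frizzled-related proteins bind Wnts outside the cell. In the skeleton the pathway is known for promoting bone formation.

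Cell titles divide the cells into 2 orders and 8 sets. Order 1 holds the Tomato+ sets P1, P2 and P3 (94, 5 and 40 cells) and the Tomato- set N2 (60 cells); order 2 holds the Tomato+ sets P1 and P2 (24 cells each) and the Tomato- sets N1 and N2 (71 and 70 cells). The sources used here do not say what the orders and sets stand for. Of 388 cells, 2 of the set P3 fell under 1000 genes or 10000 counts; the other 386 were kept, at 18031 to 3833473 counts and a median of 679644 counts per cell. Levels are CPM, counts scaled to a total of 1000000, of the counts summed over the cells of a group in 1 order. In such a sum, fewer cells with the transcript and less of it per cell cannot be told apart. Kit itself was higher in the Tomato+ sums, with 16.9 CPM and 0.33 CPM in the groups of order 1, and 47.6 and 8.94 CPM in those of order 2. These sums rested on few cells. A Kit count was found in 13.9% of Tomato+ and 13.3% of Tomato- cells of order 1, and in 37.5% and 10.6% in order 2. The shares with 5 or more counts were 7.3% and 0%, then 14.6% and 5.67%. Of the Tomato+ counts, 1 cell held 23.6% in order 1 and 27.7% in order 2. All 12 markers of Lepr+ marrow stroma had counts in each group. They summed to 67350 CPM in Tomato+ and 44332 CPM in Tomato- cells of order 1, and to 78175 and 69804 CPM in order 2. Most of each sum was Cxcl12, at 42135 and 22490 CPM in order 1 and 53092 and 48167 CPM in order 2. Lepr itself lay lower in Tomato+ in both orders, at 3657 and 4261 CPM, then 4141 and 4381 CPM. In the median cell the 12 markers summed to 67767 and 41095 CPM in order 1 and to 76974 and 77366 CPM in order 2. The 8 myeloid markers summed to 46.8 to 76.8 CPM in 3 groups and to 15051 CPM in Tomato- cells of order 2, where 12 cells had at least 5 counts of Ptprc, the CD45 gene. Listed as Tomato+ and Tomato- of order 1, then Tomato+ and Tomato- of order 2, the 8 endothelial markers summed to 192.45, 35.4, 246 and 22.8 CPM, the 8 osteoblast markers to 13876, 22328, 8002 and 8671 CPM, and the 6 pericyte markers to 165.9, 1156, 82.8 and 121.2 CPM. The 6 Sca1+ fibroblast markers, listed alike, summed to 79.1, 264.8, 7.78 and 78.5 CPM. Fibroblast, pericyte and osteoblast markers thus lay lower in the Tomato+ sums of both orders, as Lgr4, Lgr5, Axin2 and Tcf7l2 did. In order 1, 1 Tomato- cell held 57666 CPM of pericyte markers. The median cell, listed alike, held 10010, 13533, 7811 and 8087 CPM of osteoblast markers. It held 10.8, 12.3, 19.2 and 41 CPM of pericyte markers, and 1.25, 0.58, 0 and 0 CPM of fibroblast markers. Apart from values without the 35 cells with Ptprc or Pecam1 at 5 or more counts, the part of other cell types in the differences below was not tested.

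Start-site sequence is shown for the genes on which the receptor and feedback results turn: Lgr4, which had the widest difference between the groups of the members with a count in most cells, and Axin2, the standard Wnt feedback gene, which was barely read. RefSeq start sites on GRCm38.p6 were matched for 4 of the 10 members. The 250 bases before the start are written 5′ to 3′ on the plus strand, with each CG pair in capitals. The Lgr4 window lies at chr2:109917397-109917646 and the Axin2 window at chr11:108920099-108920348.
Lgr4: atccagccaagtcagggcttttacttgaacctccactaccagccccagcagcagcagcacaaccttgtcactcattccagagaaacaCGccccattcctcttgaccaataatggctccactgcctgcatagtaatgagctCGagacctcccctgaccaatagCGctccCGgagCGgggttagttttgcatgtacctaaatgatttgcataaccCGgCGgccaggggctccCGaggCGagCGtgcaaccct
Axin2: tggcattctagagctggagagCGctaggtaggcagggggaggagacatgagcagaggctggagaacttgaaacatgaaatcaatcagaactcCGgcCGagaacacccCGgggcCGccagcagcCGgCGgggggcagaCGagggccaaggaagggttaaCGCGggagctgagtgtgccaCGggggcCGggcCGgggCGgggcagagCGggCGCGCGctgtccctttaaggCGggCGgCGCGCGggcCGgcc
The Lgr4 window held 10 CG pairs and the Axin2 window 24, against a median of 6 over 32851 start-site windows of the same length. Fewer pairs than in Lgr4 were found in 62.2% of windows, and fewer than in Axin2 in 88%. The letters CTTTGA, the core of the motif of TCF and LEF factors, were in neither window on either strand. They were in 13.8% of all windows. No other form of the motif and no other stretch of either gene was searched.

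Sfrp4 was the most abundant member by far, and it was read in every cell. It encodes a secreted Frizzled-related protein, and lies on chromosome 13 of GRCm38 at 19623104 to 19632994. Its summed level was 4442 CPM in Tomato+ and 4448 CPM in Tomato- cells of order 1, and 3093 and 2374 CPM in order 2. The sums lay within counting error of each other in order 1 (log2 ratio −0.00, interval −0.01 to 0.01), but 30.5% of the Tomato- counts there came from 1 cell. Tomato+ lay 1.303-fold higher in order 2 (0.38, 0.37 to 0.39). Without the top cell of each group the ratios were 0.35 and 0.36. Per kilobase of exon, Sfrp4 was at 1063, 1064, 740 and 568 CPM per kb in the 4 groups, which placed it between rank 27 and rank 75 of 24685 genes. The median cell held 2944 and 2085 CPM in order 1 and 2460 and 2083 CPM in order 2. Single cells nevertheless spread widely around these medians, from 7.25 CPM in a Tomato- cell of order 2 to 38083 CPM in a Tomato- cell of order 1.

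A count alone does not show that a cell expresses a gene, since reads can pass between cells of a library pool. Counts in blood-type cells are given for comparison; whether they are carried over or the cells' own was not tested. The 12 cells of order 2 with 5 or more Ptprc counts, all Tomato-, all had Sfrp4 counts, but at 97.1 CPM in sum against 2763 CPM in the other cells of order 2. Their median depth was 853826 counts, and that of the other cells 643382. Lgr4 had a count in 41.7% of the blood-type cells (15.2 to 72.3) and in 74% of the others; with 5 counts required, the shares were 0% and 63.3%. Shares of cells are therefore given below mainly for 5 or more counts. At that level the share of blood-type cells was still 100% for Sfrp4, as in the other cells of order 2, so that the limit does not set them apart. It was 41.7% for Ctnnb1, which many cell types express, 16.7% for Tcf7l2, 8.33% for Rspo3 and for Lrp6, and 0% for Sfrp1, Lgr5, Lrp5 and Axin2. Lgr5 and Axin2 had no count at all in these cells. A share of 0 in 12 cells is a wide limit. The groups of order 1 differed in depth, with a median of 774174 counts in Tomato+ and 500702 in Tomato- cells. Their shares at 5 or more counts are therefore not at equal depth.

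**Figure D1:**
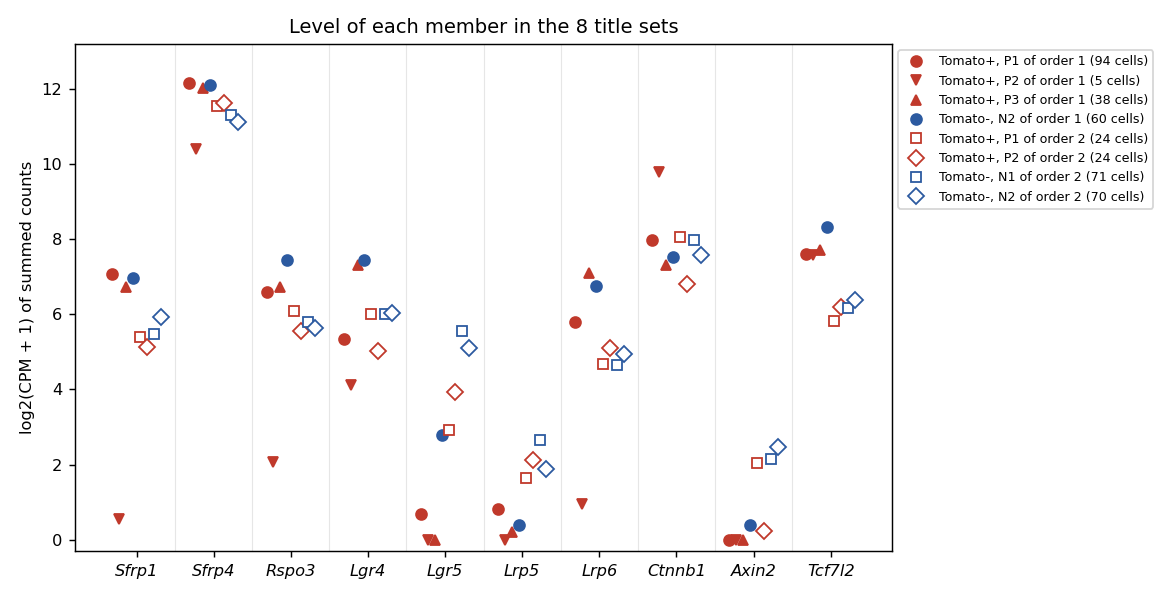
Level of each member, as log2(CPM + 1) of the counts summed over the cells of a title set (vertical axis), for the 10 members (horizontal axis). Each point is 1 of 8 sets, red for Tomato+ and blue for Tomato-, filled for order 1 and open for order 2. Sfrp4 stands above the other members in every set, and Lgr5, Lrp5 and Axin2 lie lowest in most sets.

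Sfrp1, the other secreted antagonist among the members (chromosome 8, 23411502 to 23449632), was much lower and was uneven between cells. Its level was 124.99 CPM in Tomato+ and 123.05 CPM in Tomato- cells of order 1, and 37.1 and 52.7 CPM in order 2. The log2 ratios were 0.02 (−0.03 to 0.07) and −0.49 (−0.60 to −0.41). At least 5 counts were found in 38% and 33.3% of cells in order 1 and in 39.6% and 37.6% in order 2. The share of cells thus ranged only from 33.3% to 39.6%, while the summed level differed more between the orders than between the Tomato groups.

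Rspo3 encodes a secreted R-spondin, an amplifier of Wnt responses (chromosome 10, 29452416 to 29535867, minus strand). In order 1 its level was 96.3 CPM in Tomato+ and 174.6 CPM in Tomato- cells, and in order 2 it was 55 and 51.2 CPM. The log2 ratio was therefore −0.85 (−0.91 to −0.81) in order 1 and 0.10 (0.02 to 0.18) in order 2. In order 1, 21.9% of the Tomato- counts came from 1 cell. The direction of order 2 was not stable: its ratio was −0.03 without the top cell of each group, −0.07 by the mean of per-cell CPM or after thinning, and −0.05 without cells holding Ptprc or Pecam1, while order 1 lay between −0.94 and −0.61 in these. The shares of cells with 5 or more Rspo3 counts were 47.4% and 41.7% in order 1, and 41.7% and 52.5% in order 2. Each pair ran against its summed levels. In order 1, where Tomato+ cells were deeper, this was not so for any count (70.8% and 81.7%) or after thinning (57.9% and 64.2%). In order 2 the Tomato+ share stayed lower, at 60.4% and 65.2% for any count and 47.9% and 60% after thinning. Over all groups, 47.7% of the 386 cells had 5 or more Rspo3 counts. Its relative Rspo2 reached 5 counts in 100 cells, both genes in 64 and either in 220 (57%).

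Lgr4, a receptor for R-spondins on chromosome 2 (109917647 to 110014257), lay lower in Tomato+ cells in both orders. It was at 66.2 CPM (64.7 to 67.7) in Tomato+ and 171.99 CPM (167.5 to 176.5) in Tomato- cells of order 1, a 2.58-fold difference. In the cells of order 2 it was at 45.4 CPM (43.1 to 47.8) and 64.1 CPM (62.5 to 65.8), a 1.40-fold difference. On the log2 scale the ratios came to −1.37 and −0.49 and their mean to −0.93, the widest of the members with a count in most cells. The shares of cells with 5 or more counts were close to each other, 48.2% and 55% in order 1 and 58.3% and 59.6% in order 2. A median cell held 5.51 CPM in Tomato+ and 23.1 CPM in Tomato- cells of order 1, and 18.9 and 41.7 CPM in order 2. Few cells carried the sum in order 1: 28.3% of the Tomato- counts lay in 1 cell and 50% in 3 cells. Without the top cell of each group, the mean log2 ratio was −0.85 (−1.15 in order 1).

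The Lgr4 difference was not the same in all title sets. The Tomato+ set P1 of order 1 was at 39.5 CPM and P3 of the same order at 158.8 CPM, close to the 171.99 CPM of the Tomato- set N2. Without P1 the mean log2 ratio was −0.35, and without P3 it was −1.30. In order 2 the Tomato+ set P1 was at 63.4 CPM and the Tomato- set N1 at 63.2 CPM, whereas P2 was at 31.8 CPM and N2 at 64.9 CPM. The low Tomato+ values thus came from 1 of the 2 large sets of order 1 and from 1 of the 2 sets of order 2. Depth differed too: the median cell of P1 in order 1 held 848562 counts, that of P3 611572 and that of N2 500702. After each cell was thinned to 150000 counts, the share of cells of order 1 with a Lgr4 count was 57.1% (48.3 to 65.7) for Tomato+ and 71.7% (57.7 to 83.2) for Tomato-, against 78.1% and 85% before thinning. In order 2 the thinned shares were 60.4% and 64.4%, against 70.8% and 72.3%. Thinning left out 4 Tomato+ and 7 Tomato- cells of order 1 and 6 Tomato- cells of order 2 as too shallow. The intervals of the groups overlapped in both orders.

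Lgr5, the other R-spondin receptor and a marker of stem cells in several epithelia (chromosome 10, 115450311 to 115587780, minus strand), was read in a minority of cells. Only 37 of 386 cells had 5 or more counts, 9 of them Tomato+ and 28 Tomato-. Its level was 0.45 CPM in Tomato+ and 5.96 CPM in Tomato- cells of order 1, and 11.03 and 39.1 CPM in order 2. The log2 ratios were −2.26 and −1.74, but the order 1 value rested on 1 cell, which held 99.5% of the Tomato- counts. Without the top cell of each group the ratio of order 1 was 0.28 and the mean was −1.07. In order 2, 6 of 48 Tomato+ cells and 19.1% of Tomato- cells had 5 or more counts. Any count was found in 22.9% (12.03 to 37.3) and 31.9% (24.3 to 40.3), and after thinning in 16.7% (7.48 to 30.2) and 20% (13.6 to 27.7), so that the intervals overlapped. Both LGR receptors reached 5 counts in 25 cells.

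**Figure D2:**
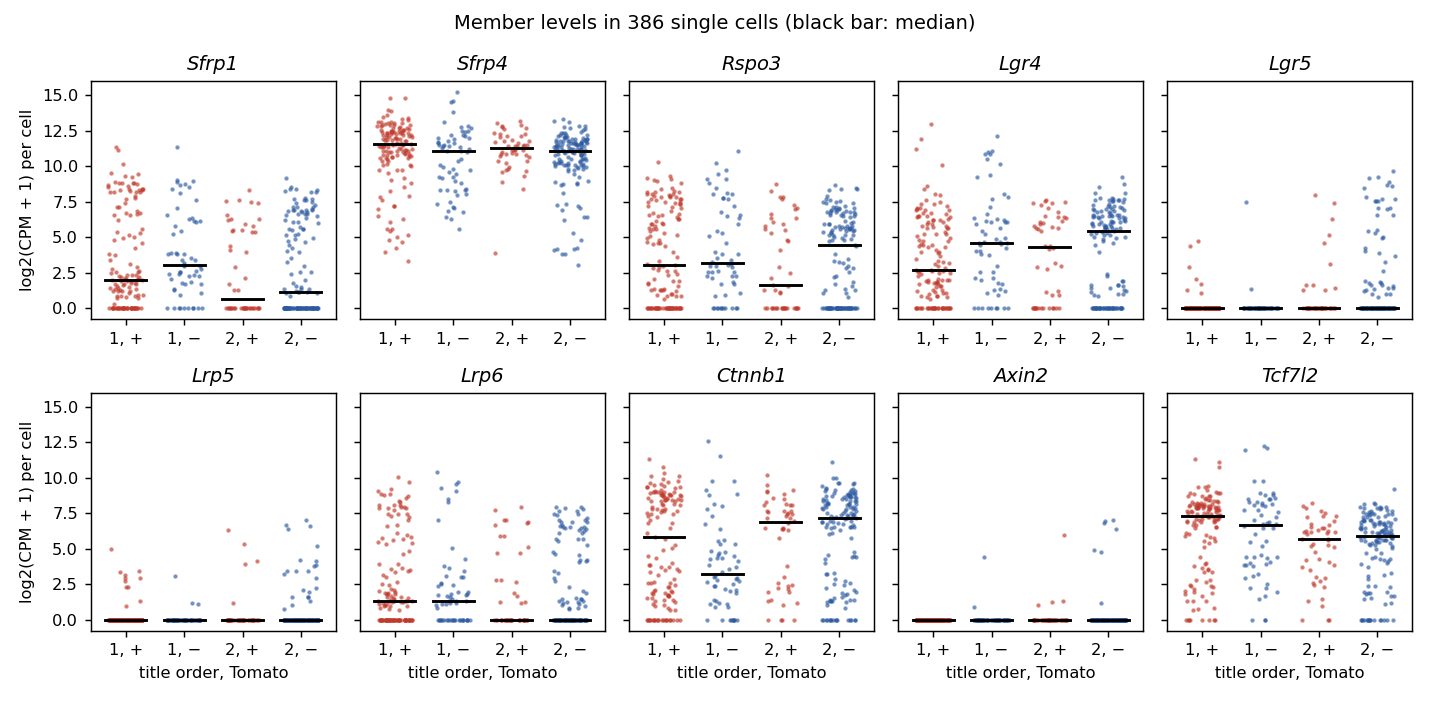
Level of each member in single cells, as log2(CPM + 1) per cell (vertical axis), with cells grouped by title order and Tomato group (horizontal axis). Each point is 1 of 386 cells and the black bar is the median; Sfrp4 is above 0 in every cell, whereas the medians of Lgr5, Lrp5 and Axin2 are at 0 in all 4 groups.

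Of the Wnt co-receptors, Lrp6 (chromosome 6, 134446476 to 134566965, minus strand) was read far more often than Lrp5 (chromosome 19, 3584828 to 3686564, minus strand). Lrp6 was at 71.8 CPM in Tomato+ and 107.75 CPM in Tomato- cells of order 1; in order 2 the values were 29.8 and 27.3 CPM. Its log2 ratios were −0.58 (−0.64 to −0.53) and 0.12 (0.01 to 0.23). The direction of order 2 rested on few cells, since 30.3% of its Tomato+ counts lay in 1. Without the top cells the ratios were −0.49 and −0.24, by the mean of per-cell CPM −0.21 and −0.12, and after thinning −0.33 and −0.12. Without cells holding Ptprc or Pecam1 they were −0.36 and 0.22, again of opposite sign. The shares of cells with 5 or more Lrp6 counts were 30.7% and 15% in order 1 and 25% and 27.7% in order 2. Tomato+ cells of order 1 were deeper, however. With any count required, the shares of order 1 were 62.8% and 63.3%, and after thinning 42.1% and 45.3%. An excess of Tomato+ cells with Lrp6 was thus not seen at equal depth. Lrp5 was at 0.61, 0.30, 2.83 and 3.81 CPM in the same 4 groups, and 25 cells had 5 or more counts. Per kilobase of exon, Lrp6 was at 2.00 to 7.88 CPM per kb and Lrp5 at 0.03 to 0.39 CPM per kb. Neither co-receptor reached 5 counts in 266 of the 386 cells, where 8.33% of blood-type cells reached it for Lrp6.

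Ctnnb1, which encodes β-catenin, the signal carrier of the pathway and a part of cell junctions (chromosome 9, 120929216 to 120960507), was second to Sfrp4 in level per exon length in 3 of the 4 groups. It was at 244 CPM in Tomato+ and 182.5 CPM in Tomato- cells of order 1; in order 2 the values were 176.8 and 217 CPM. The log2 ratio was 0.42 (0.38 to 0.46) in order 1 and −0.30 (−0.34 to −0.26) in order 2. In order 1, 57.7% of Tomato+ and 38.3% of Tomato- cells had 5 or more counts, and in order 2, 66.7% and 67.4%. The Tomato+ cells of order 1 were deeper, and after thinning 66.2% of them and 64.2% of Tomato- cells had a count. In order 2 the thinned shares were 77.1% and 78.5%. By summed level, the group that was higher in order 1 was thus lower in order 2. The set P2 of order 1 held it at 877 CPM in 5 cells; without that set, the ratio of order 1 was 0.34.

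Axin2, the negative regulator that Wnt signalling induces (chromosome 11, 108920349 to 108950783), was nearly unread. It had a count in 13 of 386 cells and 5 or more counts in 8, of which 1 was Tomato+ and 7 were Tomato-. In Tomato+ cells of order 1 there were 0 counts, which at the limit of 3 counts allows a level of up to 0.03 CPM and a share of cells with a count of up to 2.19%; it sets no limit on cells that carry the transcript unread. The Tomato- cells of order 1 held 10 counts (0.30 CPM), of which 90% lay in 1 cell. Order 2 gave 1.45 CPM (1.06 to 1.94) in Tomato+ and 4.07 CPM (3.67 to 4.499) in Tomato- cells, with 93.3% of the Tomato+ counts in 1 cell. The share of cells with a count in order 2 was 8.33% (2.32 to 20) in Tomato+ and 4.96% (2.02 to 9.96) in Tomato- cells, in the direction opposite to the level. At such counts, whether fewer Tomato+ cells carried the transcript was not detectable. Axin2 and Lgr5, another gene that Wnt signals induce in several tissues, both reached 5 counts in 3 cells. All of these were in order 2, where 1.22 cells would hold both if the genes were independent. That difference rests on few cells and was not tested.

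Tcf7l2, a nuclear partner of β-catenin (chromosome 19, 55741820 to 55933654), was read in most cells of every group. Its level was 198.6 CPM in Tomato+ and 317 CPM in Tomato- cells of order 1, and 65 and 77.4 CPM in order 2. The log2 ratios were −0.67 (−0.71 to −0.64) and −0.25 (−0.32 to −0.18), lower in Tomato+ in both orders. As many as 77.4% and 66.7% of cells in order 1, and 77.1% and 77.3% in order 2, had 5 or more counts. In order 1 the median Tomato+ cell held more of it than the median Tomato- cell, 157.99 against 100.9 CPM, although the sum was lower. Without the top cell of each group, the mean log2 ratio was −0.44.

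**Figure D3:**
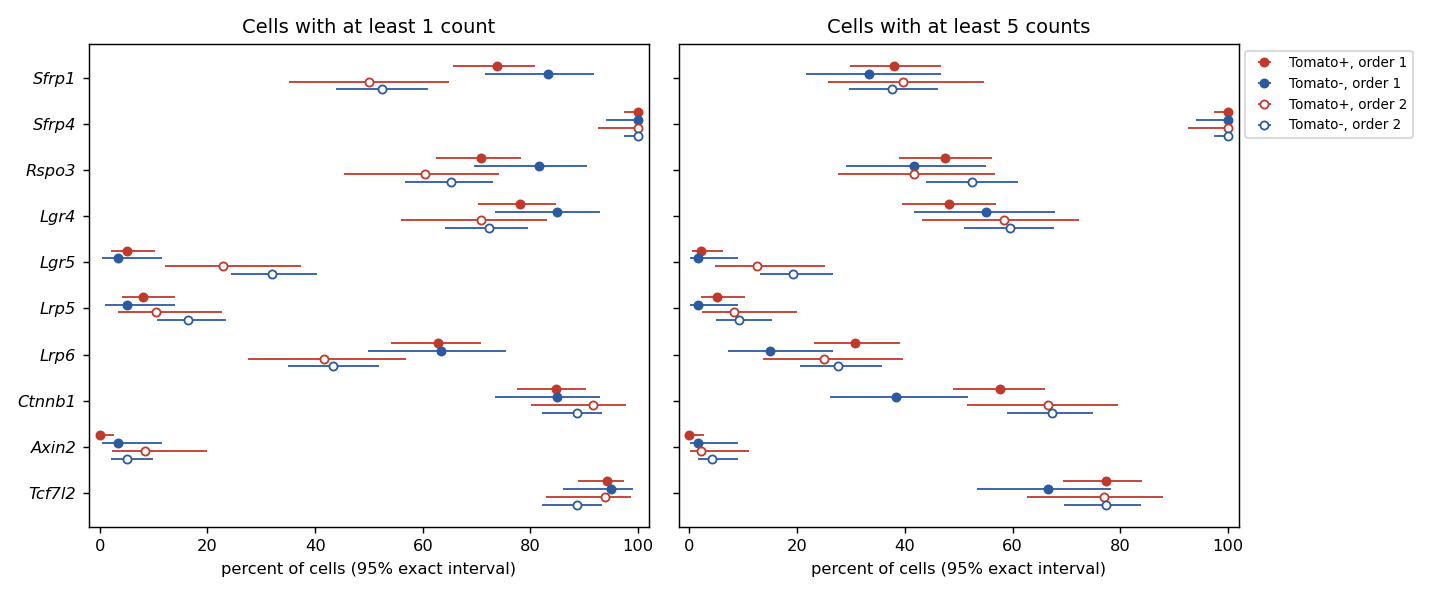
Share of cells with at least 1 count (left) and at least 5 counts (right) of each member, in percent of the cells of a group, with exact 95% intervals. Red is Tomato+, blue is Tomato-, filled points are order 1 and open points order 2; the intervals of the Tomato groups overlap within each order for every member, and for Sfrp4 all 4 shares are 100%.

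Across the 10 members, none met a rule of size that asked for the same direction and more than 1.5-fold in both orders, with at least 20 CPM and a count in 20% of cells in the higher group. The floor of level and detection was reached by 7 of the 10, not by Lgr5, Lrp5 and Axin2. Over all 5703 genes at the floor, 2.72% were higher and 3.72% lower in Tomato+ cells by this rule, and the count of 0 among the 7 is no result about the members beside these shares. In order 1 alone, Rspo3, Lgr4 and Tcf7l2 were more than 1.5-fold lower, where 22.9% of the 5703 genes were, and no member at the floor was more than 1.5-fold higher, against 26.8%. In order 2 alone, none of the 7 was past 1.5-fold, against 21.2% of genes in either direction. The median log2 ratio of the 10 members was −0.48 in order 1, −0.31 in order 2 and −0.31 for the mean of the orders. Over the 5703 genes the medians were 0.04, −0.00 and 0.02. All of these genes were at the floor, whereas the 10 members include Lgr5, Lrp5 and Axin2, which were not. With 3 counts of Axin2 put in the Tomato+ sum of order 1, where there were 0, and no pseudocount for that ratio, the members' median was −0.63 in order 1 and −0.31 for the mean. Lgr4, Lgr5, Axin2 and Tcf7l2, 4 members, lay lower in both orders, 0 lay higher in both, and 6 had opposite signs. Of these 4, Lgr5 and Axin2 were under the floor. Over all genes at the floor, 52.9% had the same sign in both orders. The share of genes lower in both is not given here, so the split of the members has no background beside it.

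**Figure D4:**
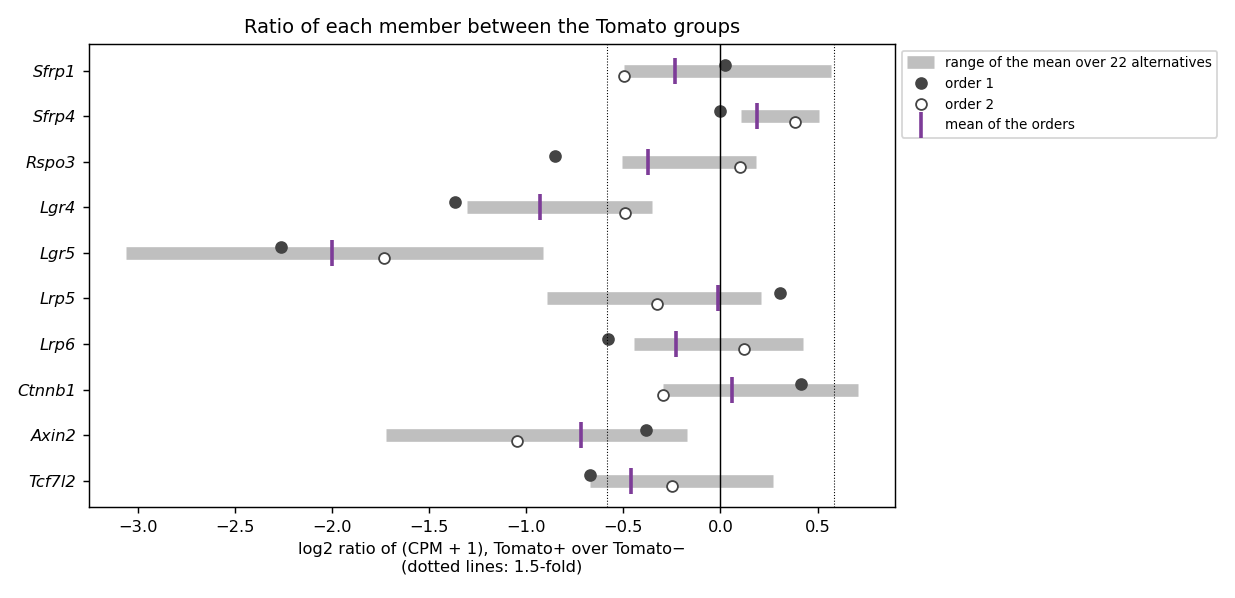
Log2 ratio of (CPM + 1), Tomato+ over Tomato- (horizontal axis), for each member (vertical axis). Filled points are order 1, open points order 2, purple marks their mean, and the grey bar is the range of that mean over 22 other ways of processing; Lgr4, Lgr5 and Axin2 stay below 0 and Sfrp4 above 0 throughout, while the bars of the other 6 members cross 0.

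Library codes in the column names of order 1 allow a comparison within pools, since 7 of 12 codes held cells of both groups, 83 Tomato+ cells, all of the set P1, and the 60 Tomato- cells of N2. Lgr4 was lower in Tomato+ cells in 5 of the 7 codes and Tcf7l2 in 6 of 7. The mean of the log2 ratios of the codes was −2.06 for Lgr4 and −1.08 for Tcf7l2. Their medians were −2.39 for Lgr4, with a range of −3.86 to 0.21, and −0.32 for Tcf7l2, with a range of −3.71 to 0.25. One code held only 2 Tomato- cells; over the other 6 codes, a restriction chosen after seeing the data, the means were −1.84 and −0.64. Lgr4 ranged from 7.61 to 72.7 CPM (median 50.3) over the codes in Tomato+ cells and from 51.7 to 745 CPM (median 151.7) in Tomato- cells, so that the ranges overlapped. Ctnnb1 was higher in Tomato+ cells in 6 of the 7 codes, from −1.49 to 5.09, with a median of 1.04 and a mean of 1.77 (1.22 over the 6 codes). Sfrp4 was higher in 5, from −2.18 to 1.29, with a median of 0.33 and a mean of −0.15 (0.19). Rspo3 was lower in 4 of the 7 codes, with ratios from −1.45 to 3.69, a median of −0.50 and a mean of 0.26 (−0.10). Lrp6 was likewise lower in 4, from −1.53 to 4.69, with a median of −0.53 and a mean of 0.75 (0.51). Sfrp1 was higher in 4, from −2.73 to 4.44, with a median of 1.14 and a mean of 1.26 (0.74). The codes thus gave no common direction for these last 3 genes. Lgr5 was higher in Tomato+ cells in 3 of the 7 codes and lower in 1. Lrp5 was higher in 4 and lower in 1, and Axin2 was lower in 1 and higher in 0. The median log2 ratio of the codes was 0 for Lgr5 and Axin2 and 0.70 for Lrp5. The set P3 shares no code with Tomato- cells, so its library and its group cannot be told apart. In order 2, sets were paired by their number, which is an assumption. Lgr5, Axin2, Sfrp1 and Tcf7l2 were lower in Tomato+ cells under both numbers, Sfrp4 and Lrp6 higher under both, and Lgr4, Rspo3, Ctnnb1 and Lrp5 differed in direction between the numbers. Several of these log2 ratios were near 0 and set no direction. Under number 1 they were −0.08 for Sfrp1, −0.10 for Axin2, 0.04 for Lrp6, 0.005 for Lgr4 and 0.07 for Ctnnb1. Rspo3 was at −0.09 under number 2.

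Left out together, the 35 cells with 5 or more counts of Ptprc or Pecam1 moved the mean log2 ratio of Lgr4 from −0.93 to −0.92, that of Rspo3 from −0.38 to −0.46 and that of Tcf7l2 from −0.46 to −0.55. Ctnnb1 went from 0.06 to −0.01 and Lrp6 from −0.23 to −0.07. Lgr4, Rspo3, Tcf7l2 and Lrp6 thus had the same direction without those cells, and Ctnnb1, near 0 in both cases, did not.

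Compared per kilobase of exon, the members formed the same broad tiers in both groups of order 2. Sfrp4 came first and Ctnnb1 next, at 34.05 CPM per kb in Tomato+ and 41.9 in Tomato- cells. Rspo3 followed at 17.8 and 16.6, then Sfrp1 at 8.49 and 12.1, Lgr4 at 7.71 and 10.9, and Tcf7l2 at 7.41 and 8.82, 3 genes whose ranges over the groups overlap. Lrp6 was at 2.18 and 2.00, Lgr5 at 1.08 and 3.81, Lrp5 at 0.29 and 0.39, and Axin2 at 0.26 and 0.74 CPM per kb. In order 1, Rspo3, Sfrp1, Lgr4 and Tcf7l2 were between 11.2 and 56.5 CPM per kb, and in Tomato- cells Rspo3 (56.5) and Tcf7l2 (36.2) stood above Ctnnb1 (35.1). The sources used here do not say whether reads cover whole transcripts evenly.

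Within single cells the members were read in many combinations and followed each other weakly. A cell had 5 or more counts of a median of 4 members, with a range of 1 to 9. Rspo3 and the receptor Lgr4 both reached 5 counts in 29.3% of the 386 cells. Across the kept cells of order 1 (94, 5, 38 and 60 in its sets), Spearman's rho between members was at most 0.27 (Sfrp1 with Tcf7l2), and across those of order 2 (24, 24, 71 and 70) at most 0.22 (Sfrp1 with Lrp6); cells of a pool share library and depth, and these are descriptions without a test. Over 2801 genes with a count in 50% of the cells of each order, the pattern most like Sfrp4 was that of Gpx3, a secreted glutathione peroxidase, with rho of 0.47 and 0.42, followed by Kng2 (0.36 and 0.33) and Islr (0.35 and 0.32). For Rspo3 the genes were Cd302 (0.31 and 0.35), the adipokine gene Adipoq (0.24 and 0.25) and the IGF-binding protein gene Igfbp4 (0.25 and 0.24). Sfrp1 was most like Ltbp2, a matrix protein gene (0.36 and 0.30), then Rbms3 and the collagenase gene Mmp13. Tcf7l2 was most like Sept11 (0.28 and 0.33), Plpp3 and Psmb10. The likest genes of Lgr4, which were Degs1, Kcne4 and Sub1, reached only 0.18 in the weaker order, and those of Ctnnb1 (Rps2, Sept11 and Nedd4) only 0.21. Sfrp4 also followed depth in order 1, with a rho of 0.30 against the total count of a cell, but not in order 2 (−0.07).

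The wider pathway was read in the same way, in 7 lists by role that together name 100 genes, of which 99 were in the table and 37 reached the floor. One gene was higher and 1 lower by the rule of size, 5.41% of the 37 against 6.44% of the 5703 genes in either direction. The higher gene was Bambi, a decoy receptor of the TGF-beta family that Wnt signals can induce, with 41.6 CPM in Tomato+ and 1.67 in Tomato- cells of order 1, and 151.5 and 66 CPM in order 2 (3.99 and 1.19 on the log2 scale). A Bambi count was found in 34.3% of Tomato+ and 50% of Tomato- cells of order 1, in the direction opposite to the level. In order 2 the shares were 72.9% and 61.7%. The lower gene was Ctnnbip1, which encodes an inhibitor of β-catenin binding to TCF factors, with 13.8 and 29.9 CPM in order 1 and 14.8 and 25.4 CPM in order 2 (−1.06 and −0.74). Bambi missed the rule without the set P1 of order 1 and with both orders summed. Ctnnbip1 missed it at a pseudocount of 10, after thinning, without its top cells and within the 7 shared codes, but met it within the 6. Both missed it when counts under 5 were zeroed, and when those below 1% of a pool's highest were.

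Wnt ligands themselves were scarce. Of 19 Wnt genes, 8 had 0 counts in all kept cells and 0 reached the floor, and 110 cells (28.5%) had 5 or more counts of at least 1. Wnt4, the most abundant, was at 25.7 CPM in Tomato+ and 37 CPM in Tomato- cells of order 1. It missed the floor only in order 2, at 8.27 and 7.25 CPM. The ligand transporter gene Wls was read at 358, 467, 293 and 292 CPM, the groups being listed as above, and Porcn, the acyltransferase gene of Wnt lipid modification, at a mean of 25.2 CPM; neither met the rule. Among R-spondins, LGR receptors and their ligases, 4 of 9 genes reached the floor and 0 met the rule; Rspo3 and Lgr4 were the most abundant. Rspo2 was at 110, 116.3, 35.2 and 44.5 CPM.

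Of 16 Frizzled and co-receptor genes, 7 reached the floor and 0 met the rule, and Ptk7 (a mean of 78.9 CPM) and Fzd1 (76.1 CPM) were the most abundant. Of 16 secreted antagonists, 5 reached the floor and 0 met the rule. Wif1, a secreted inhibitor that binds Wnts, was next to Sfrp4 at 296, 150.9, 229 and 235 CPM. Of 18 cytoplasmic genes, 8 reached the floor and Ctnnbip1 alone met the rule. The kinase genes Gsk3b (251, 782, 130.8 and 191.2 CPM) and Csnk1a1 (361, 244, 311 and 332 CPM) of the destruction complex led this list. Of 12 nuclear effectors, 6 reached the floor and 0 met the rule; after Tcf7l2, the corepressor gene Tle2 was highest at 70, 69.2, 148.9 and 112.4 CPM. Of 16 widely used target genes, 6 reached the floor and Bambi alone met the rule. Myc, a growth regulator with many inputs besides Wnt, was highest at 870, 318, 1444 and 1669 CPM, followed by the receptor gene Tnfrsf19 at 483, 241, 278 and 242 CPM.

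**Figure D5:**
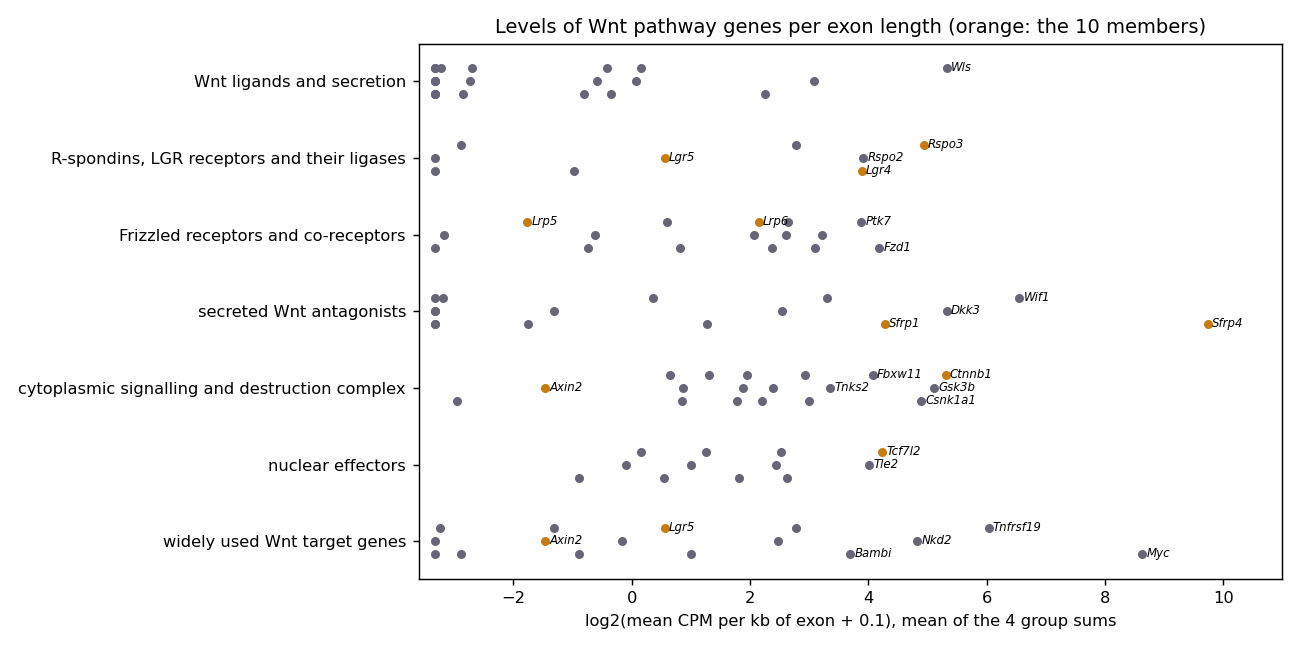
Levels of the Wnt pathway genes by role list (vertical axis), as log2 of the mean CPM per kilobase of exon plus 0.1 over the 4 group sums (horizontal axis). Each point is 1 gene and the 10 members are orange; Sfrp4 lies farthest to the right (859 CPM per kb), followed by Myc (396), and most Wnt ligand genes lie at the left edge.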

How the data were processed

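The members, gene lists and rules were chosen with earlier results of these data known. Each of the 388 samples is 1 cell, and all stand in 1 table of 25000 genes with 0 columns unused. The deposited values are expected counts per the file headers, which name RSEM in order 1, and 4.91% of values above 0 were not whole (tolerance 1e-09). Tools named in the submitters' processing notes are StringTie 1.3.3b, HTSeq 0.6.0 and HISAT, and the build is GRCm38; the sources used here give neither the role of each tool nor the gene annotation. RNA was amplified as a whole per the labels' protocols, with no mention of molecular identifiers or of strand, so that overlapping genes on either strand (Gm20276 and Gm48159 at Rspo3, A930009A15Rik at Lgr5, Ulk4 at Ctnnb1, Gm11670 at Axin2, Ppnr at Tcf7l2) may share reads.

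Expected counts were rounded. A cell was kept at 1000 or more genes and 10000 or more counts, without a doublet caller. Counts were summed per Tomato group within each title order, and the log2 ratio (Tomato+ over Tomato-) of CPM with a pseudocount of 1 was averaged over the orders; this scale understates differences of low genes. Named genes are the members, the 2 most abundant genes of each role list and those past the rule of size, which also asks for the same sign of the mean of per-cell CPM. Rspo2 and Wnt4 were named besides these. The likest genes were the 3 with the highest value of the smaller Spearman's rho. Intervals are exact at 95%: Poisson for sums, Clopper-Pearson for shares, and for ratios conditional on the summed counts, without the pseudocount. A count of 0 allows 3 counts. Coordinates and exon lengths come from GENCODE M21. Sums and ratios were tested on simulated data (Python 3.11.15, numpy 2.4.6, pandas 2.3.3, scipy 1.17.1). The simulated cells shared a common profile apart from the changes put in. They held no difference of order, set or library and no sums carried by single cells, so the test does not bear on those.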

Additional observations from a re-analysis of the deposited data

How the results depend on the processing

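The count of members higher in Tomato+ cells was 0 under all 23 alternatives planned. The count of lower members was 0 in 19 and 1 in 4: Lgr5 with no low-count filter, with the cells of both orders summed and without the set N2 of order 1, which leaves order 2 alone, and Lgr4 without P1 of order 2. The median log2 ratio of the members was −0.31. Averaged over the orders, the members' own interval ends had medians of −0.41 (lower) and −0.24 (upper). These ends lack the pseudocount and are not an interval of the median itself. The median log2 ratio was −0.21 at a pseudocount of 10, 0.10 with both orders summed, −0.42 without P3 of order 1 and 0.063 within pools. The 2 pathway genes past the rule of size became 1 at a pseudocount of 10, without P1 of order 1 and without each gene's top cell, 0 with counts under 5 or under 1% of the pool maximum set to 0, 5 within pools, 6 with no filter or without P1 of order 2, 10 without N2 of order 1 and 12 with both orders summed. With library codes of under 5 cells of a group left out as well, an alternative chosen after seeing the data, the member counts were 0 and 0, the median −0.0028 and the pathway count 6. The cause was not tested. The mean ratio kept its sign in 22 of 22 alternatives for Sfrp4 (0.11 to 0.51), Lgr4 (−1.30 to −0.35), Lgr5 (−3.06 to −0.92) and Axin2 (−1.72 to −0.17). It changed sign in 1 for Tcf7l2 (0.27 with both orders summed), 2 for Sfrp1, 3 for Rspo3, 4 for Lrp6, 7 for Ctnnb1 and 8 for Lrp5. These counts are of the mean of the orders: for Lgr5, order 1 alone changed sign without the top cell of each group. No paired analysis was possible because the replicate numbers of cells only name them and pair no Tomato+ cell with a Tomato- cell; ratios within shared pools stand in the report, without a test. Lgr5, Lrp5 and Axin2 rest on few cells, 37, 25 and 8 with 5 or more counts; what greater depth would show was not tested.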
